A study of Mus musculus with 2 samples.

Results

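Runx1, Runx2, Runx3 and Cbfb encode the subunits of core-binding factor, a transcription factor that works as a pair of one DNA-binding and one non-DNA-binding protein. The 4 genes were taken by symbol from the gene and transcript tables of mouse thymus, which hold 43346 genes, and each of the 4 was found in both tables of both libraries. The tables come from a single group: thymus tissue of C57BL/6J mice, an inbred laboratory strain, 8 weeks old, from littermates with males and females pooled, and with no allele or treatment named in the labels. RNA longer than 200 nucleotides, depleted of ribosomal RNA and selected for poly(A) tails, was made into 2 stranded libraries with added spike-in RNAs and read as pairs of 76 bases. The labels call the libraries biological replicates 1 and 2 and give them separate biosamples but the same donor entry, so the spread between them may be technical in part. With 1 group no condition was compared, and an exact permutation test of 2 libraries against 2 could not give a p below 0.333, so values are given per library and no p-value was computed.

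The 3 Runx proteins share the Runt domain, which reads a short DNA motif, and Cbfb binds that domain, raises its affinity for DNA and protects the Runx protein from degradation without touching DNA itself. In the thymus, Runx1 is known for its part in early T cell development and in keeping Cd4 silent in immature thymocytes, and Runx3 for silencing Cd4 and opening the cytotoxic programme in CD8 lineage cells. Runx2 is best known as the regulator of bone formation. Each Runx gene can start at a distal or a proximal promoter, and the resulting proteins begin with different residues before a common body.

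The promoters are shown first, because the distal ones carry a shared piece of sequence. Each Runx distal window in the RefSeq promoter table (GRCm38.p6; 250 bases before to 50 after the start site) holds the same 18 bases, in which the Runx motif TGTGGT appears 2 times on the reverse strand, read as ACCACA. The 30 bases around it are given 5′ to 3′ on the strand of the gene, at chr16:92826025-92826054 (reverse strand), chr17:44814583-44814612 (reverse strand) and chr4:135120503-135120532 (forward strand), with the common 18 bases in capitals.
Runx1 distal: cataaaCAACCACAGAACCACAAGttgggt
Runx2 distal: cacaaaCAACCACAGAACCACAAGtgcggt
Runx3 distal: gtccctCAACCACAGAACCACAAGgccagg
With the RefSeq start site counted as position 1, the stretch begins at position 27 in Runx1, 22 in Runx2 and -136 in Runx3. It was found on either strand in 4 of 32851 promoter windows: those of the 3 Runx genes and that of Gm16225, whose window overlaps the Runx3 distal window and reads the same bases on the other strand. The Runx2 distal window holds a further copy of the motif at position -80. For comparison, 16.8% of all windows hold the motif at least 1 time on either strand, and 1.81% hold 2 or more copies. The proximal windows of Runx1 and Runx3 and the window of Cbfb hold 0 copies, which says only that these letters are not in these 300 bases. Such a match describes the sequence and is no measure of binding.

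The distal and proximal promoters also differ in base composition. The Runx1 distal window is 45.0% G and C with 2 CG pairs, and the proximal window 69.0% with 35 CG pairs. The Runx2 distal window is 45.3% G and C with 2 CG pairs. In Runx3 the distal window is 63.7% G and C with 8 CG pairs, and the proximal window 77.3% with 45. Cbfb, which has a single promoter region in the annotation, is at 69.7% with 30, and the median of all windows is 52.7% G and C. The 80 bases before the outermost annotated start of a promoter show the contrast for Runx1 and Runx3. They lie at chr16:92826150-92826229 and chr16:92697330-92697409 (reverse strand) and at chr4:135120565-135120644 and chr4:135152416-135152495 (forward strand), in that order, with CG pairs in capitals.
Runx1 distal: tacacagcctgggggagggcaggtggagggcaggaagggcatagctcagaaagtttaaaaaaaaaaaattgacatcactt
Runx1 proximal: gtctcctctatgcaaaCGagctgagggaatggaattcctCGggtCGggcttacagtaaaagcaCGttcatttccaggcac
Runx3 distal: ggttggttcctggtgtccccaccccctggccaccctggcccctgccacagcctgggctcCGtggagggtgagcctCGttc
Runx3 proximal: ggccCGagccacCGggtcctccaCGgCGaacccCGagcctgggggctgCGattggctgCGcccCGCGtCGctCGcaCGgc
The Runx1 distal stretch has 0 CG pairs and the proximal one 4, and the Runx3 stretches have 2 and 12.

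The choice of promoter also sets where translation starts. The coding starts of the proximal transcripts Runx1-203, Runx2-203 and Runx3-202 were equal in all 3 genes at 42 of their first 60 bases, shown here in capitals, from GENCODE M21 transcripts (GRCm38).
Runx1-203: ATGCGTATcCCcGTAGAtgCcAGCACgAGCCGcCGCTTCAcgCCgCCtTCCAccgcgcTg
Runx2-203: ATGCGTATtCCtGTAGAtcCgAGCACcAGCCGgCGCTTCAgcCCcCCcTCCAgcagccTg
Runx3-202: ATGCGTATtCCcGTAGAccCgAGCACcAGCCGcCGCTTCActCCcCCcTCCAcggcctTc
The coding starts of the distal transcripts Runx1-201, Runx2-204 and Runx3-201 were equal in all 3 genes at 29 of 60 bases.
Runx1-201: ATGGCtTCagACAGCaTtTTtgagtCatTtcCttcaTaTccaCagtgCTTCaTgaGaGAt
Runx2-204: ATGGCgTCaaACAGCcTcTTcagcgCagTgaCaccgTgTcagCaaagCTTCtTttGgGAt
Runx3-201: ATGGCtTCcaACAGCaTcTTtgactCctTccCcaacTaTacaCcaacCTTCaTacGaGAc
The start codons lie on chromosome 16 at 92695753 (proximal) and 92825646 (distal) in Runx1, on chromosome 17 at 44735634 and 44814226 in Runx2, and on chromosome 4 at 135152772 and 135121106 in Runx3. Between pairs of genes the proximal starts matched at 76.7% to 81.7% of bases and the distal starts at 56.7% to 70.0%. Within a gene, the distal and proximal starts matched at 25% in Runx1, 23.3% in Runx2 and 40.0% in Runx3.

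The gene tables held 49.3 M and 63.1 M estimated fragments in replicates 1 and 2, and 14360 genes had a mean of at least 1 TPM (a level divided by transcript length and scaled to the same total in each library), with a median of 13.6 TPM. The tissue label was checked against thymocyte markers: all 8 were above 1 TPM, led by Thy1 with 1860 and 1676 TPM and the kinase gene Lck with 1327 and 1454 TPM. Albumin and 3 other liver genes together gave 113 TPM in replicate 1 and 5.55 TPM in replicate 2, so the libraries are not equal in content. Since this is a bulk tissue, fewer cells of a type and less RNA per cell cannot be told apart in any value that follows.

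Runx1 was the most abundant of the 4 genes. It lies on the reverse strand of GRCm38 at chr16:92601466-92826149 and was measured at 107.86 TPM in replicate 1 and 69.65 TPM in replicate 2, from 8889 and 8089 fragments. Its mean level was 88.8 ± 27.0 TPM (SD, n = 2), rank 1789 of 12949 protein-coding genes with at least 1 TPM. The intervals that the authors deposited with the TPM values ran from 104 to 110 and from 67.4 to 71.3, so replicate 1 stood above replicate 2 by more than these intervals.

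Runx3 (chr4:135120652-135177990, forward strand) was at 28.5 and 19.27 TPM in replicates 1 and 2, a mean of 23.9 ± 6.53 TPM (SD, n = 2) from 2404 and 2402 fragments, rank 5178. Runx2 (chr17:44495987-44814797, reverse strand) was at 7.36 and 5.26 TPM, a mean of 6.31 ± 1.48 TPM (SD, n = 2) from 666 and 693 fragments, rank 9089. Cbfb (chr8:105170674-105217989, forward strand) was at 28.79 and 21.11 TPM, a mean of 24.95 ± 5.43 TPM (SD, n = 2) from 2471 and 2456 fragments, rank 5050. For Runx2 and Runx3 the deposited intervals lie mostly above the TPM value itself, 6.90 to 8.81 for Runx2 and 27.5 to 35.1 for Runx3 in replicate 1.

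The order by mean TPM was Runx1, Cbfb, Runx3, Runx2. The lowest Runx1 value, 69.65 TPM, was above the highest Cbfb value, 28.79 TPM, and the highest Runx2 value, 7.36 TPM, was below the lowest Runx3 value, 19.27 TPM. Cbfb and Runx3 did not differ beyond their spread: Runx3 over Cbfb was 0.990 in replicate 1 and 0.913 in replicate 2. In both libraries the order was the same.

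**Figure D1:**
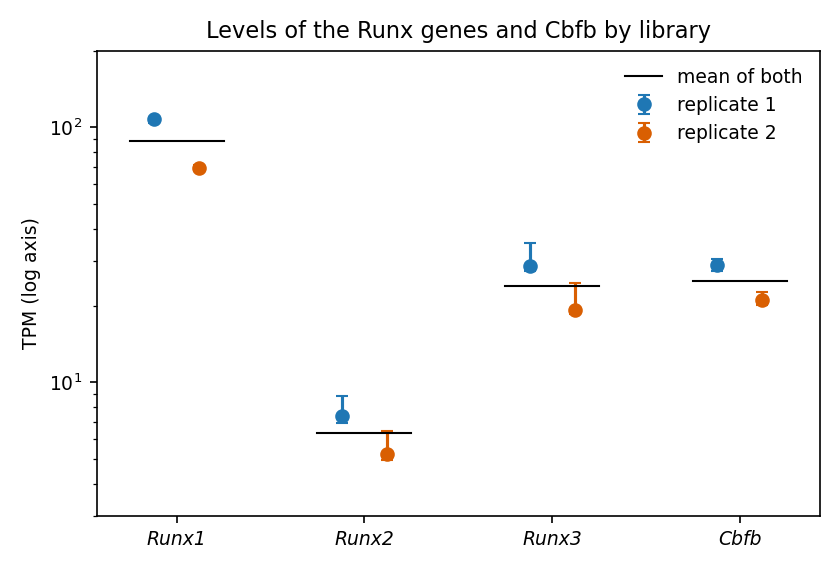
Level of each gene in TPM (log axis) in replicate 1 (blue) and replicate 2 (orange), with the interval bounds that the authors deposited as bars and the mean of both libraries as a black line. Each gene is lower in replicate 2, and the values of Runx3 and Cbfb overlap while Runx1 and Runx2 stand apart.

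Within the family the proportions were steadier than the levels. Runx1 made up 75.0% and 74.0% of the summed TPM of the 3 Runx genes, a mean of 74.5% ± 0.774 (SD, n = 2). Runx3 made up 20.1% ± 0.446 and Runx2 5.35% ± 0.328 (SD, n = 2 each). Runx1 was thus 3.70 ± 0.120 times Runx3 and 13.9 ± 0.999 times Runx2 in TPM. The summed Runx level was 143.72 and 94.18 TPM, which was 4.99 and 4.46 times that of Cbfb, a mean ratio of 4.73 ± 0.375 (SD, n = 2). At the level of mRNA, the shared partner was therefore below the sum of the DNA-binding subunits in both libraries, and close to Runx3 alone.

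All 4 genes were lower in replicate 2, beside 50.6% of all genes with at least 1 TPM (lower at any size after TMM scaling). With libraries scaled by TMM over all genes, the log2 ratio of replicate 2 to replicate 1 was -0.57 for Runx1, with a 95% counting interval from -0.61 to -0.52. It was -0.37 for Runx2 (-0.53 to -0.22), -0.43 for Runx3 (-0.51 to -0.35) and -0.44 for Cbfb (-0.52 to -0.36). These intervals cover counting error only and compare 2 libraries, with no replicate on either side. None of the 4 members passed a 1.5-fold difference in either direction, beside 10.7% of all genes with at least 1 TPM, or 4.15% for genes lower in replicate 2. Runx1 came nearest, 1.48-fold lower in replicate 2, and by TPM without rescaling it was 1.55-fold lower and past that line. Of all genes with at least 1 TPM, 10.5% had a log2 ratio at or below that of Runx2, the member that differed least.

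Levels of other cell types also differed between the libraries. The 8 thymocyte markers summed to 5492 TPM in replicate 1 and 5267 TPM in replicate 2, with 0 of 8 past 1.5-fold. Their log2 ratios ran from -0.44 (Cd3e) to 0.15 (Lck), with a median of -0.01. The 8 thymic epithelial markers, led by Prss16 and Krt8, summed to 1170 and 1534 TPM with 0 of 8 past 1.5-fold. The 4 liver genes, led by Alb (44.18 and 0.18 TPM) and Apoa2 (41.39 and 1.46 TPM), were all past 1.5-fold and lower in replicate 2. The 7SK RNA gene Rn7sk took 5.11% of the TPM in replicate 1 and 8.18% in replicate 2. The part of these differences in the Runx and Cbfb ratios was not tested.

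Runx1 had 7 transcripts in the tables, of which 3 held at least 5% of the gene. Runx1-203, a proximal transcript with a last exon of 727 bases, was at 83.39 and 49.64 TPM, or 77.3% and 71.3% of the gene. The distal Runx1-201, with a last exon of 4659 bases, was at 12.93 and 9.12 TPM, or 12% and 13.1%. Runx1-207, a distal non-coding transcript of 3 exons, held 3.71% and 7.54%. The other 4 held between 0.283% and 4.26% each. Between the libraries, the leading proximal transcript differed by more TPM than the distal coding one.

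Runx2 had 13 transcripts, and 8 of them had 0 fragments in both libraries. The proximal Runx2-210 led with 2.78 and 2.08 TPM (38.6% ± 1.2 of the gene, SD, n = 2), followed by the proximal Runx2-203 with 1.72 and 1.45 TPM (25.4% ± 2.93). Runx2-207 was the only distal transcript with fragments, at 1.89 and 0.98 TPM (22.1% ± 5.01), and its deposited intervals were wide, from 0.496 to 2.33 TPM and from 0.163 to 1.36 TPM. Its annotated coding sequence begins at its own 5′ end rather than at the distal start codon shown above for Runx2-204, which had 0 fragments. Runx2-209, whose start is not annotated, held 8.19% and the proximal Runx2-212, annotated as subject to nonsense-mediated decay, 5.61% on average.

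Runx3 was divided almost evenly between 2 transcripts, and the libraries ranked them differently. The proximal Runx3-202 was at 17.18 TPM in replicate 1 and 8.78 TPM in replicate 2, and the distal Runx3-201 at 10.99 and 9.5 TPM. Runx3-202 thus held 60.3% and 45.6% of the gene and Runx3-201 38.6% and 49.3%. The deposited intervals of the pair did not overlap in replicate 1 (15.4 to 18.5 against 10.1 to 11.7 TPM) and did in replicate 2 (7.603 to 9.77 against 8.87 to 10.1 TPM). Runx3 was the only member of the 4 whose leading transcript differed between the libraries, which was so for 11.8% of the 9858 genes with at least 1 TPM and at least 2 transcripts. The other 4 transcripts held between 0% and 1.77% each.

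Cbfb had 7 transcripts and 1 promoter region. Cbfb-202 led with 20.18 and 13.87 TPM (67.9% ± 3.13 of the gene, SD, n = 2), and Cbfb-201, which uses another donor site for the last intron and has a coding length of 561 bases beside 546, held 20.1% ± 2.94. Cbfb-206, a non-coding transcript of 3 exons, held 6.63% ± 0.195. Cbfb-204, which lacks the fifth exon, was listed at 0 in replicate 1 and at 1.43 TPM in replicate 2.

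**Figure D2:**
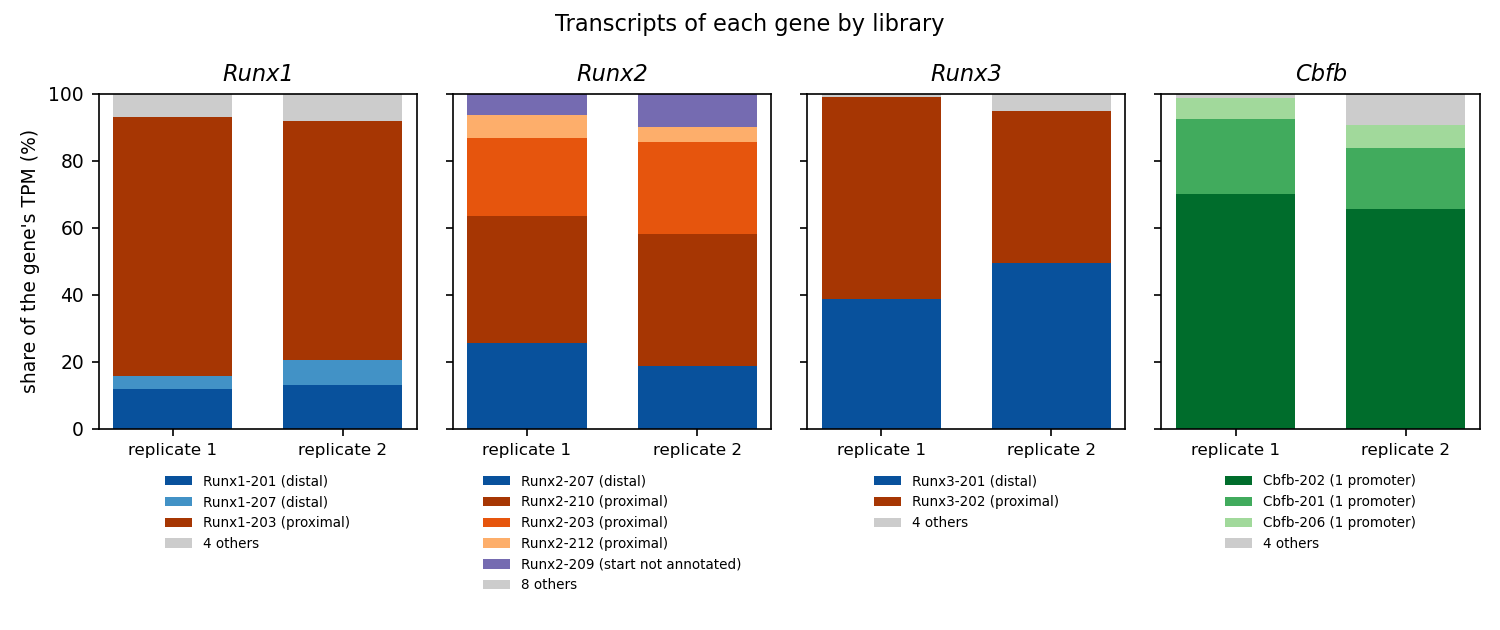
Share of each gene's TPM held by its transcripts in replicates 1 and 2 (stacked to 100%), with distal transcripts in blue, proximal in orange to brown, those with no annotated start in purple, Cbfb in green and all transcripts below 5% in grey. Runx1-203 holds 77.3% and 71.3% of Runx1, while Runx3 is split between Runx3-201 and Runx3-202.

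Summed by promoter, the distal transcripts of Runx1 held 16.3% and 21.6% of the distal and proximal TPM, a mean of 18.9% ± 3.76 (SD, n = 2). Those of Runx2 held 27.5% and 20.6%, a mean of 24.1% ± 4.84, and that of Runx3 38.6% and 49.3%, a mean of 43.9% ± 7.59. By these transcript values all 3 Runx genes were read more from the proximal promoter on average, and the Runx3 distal share was above the other 2 in both libraries. The distal values of Runx1 and Runx2 overlapped between libraries. Counted in fragments rather than per length, the distal share was 35.5% in Runx1, 13.4% in Runx2 and 64.6% in Runx3, so that Runx3 changed sides.

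Reads that cross a splice junction give a second view of the same question, because the distal first exons are joined to the body of the gene by a junction of their own. The authors deposited a series-wide junction list on another genome build, mm9. It has no header or sample label, and from its values the reads were taken as those of both libraries together. Of the annotated introns, 9 of 11 were found in it for Runx1, 11 of 16 for Runx2, 6 of 8 for Runx3 and 8 of 10 for Cbfb, by exact intron length and arrangement. In Runx1, the junction over the intron of 129851 bases, used by distal transcripts only, had 662 reads. The next junction downstream, which distal and proximal transcripts share, had 871 reads, a ratio of 0.760 (95% exact interval of the counts 0.686 to 0.842). In Runx3, the junction over the distal intron of 31624 bases had 26 reads beside 179 at the first shared junction, a ratio of 0.145 (0.0924 to 0.220). In Runx2, the junction over the distal intron of 78550 bases had 1 read beside 44, a ratio of 0.0227 (0.000563 to 0.133).

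By these junctions Runx1 came first in distal use and Runx3 below it, where transcript TPM placed Runx3 first. That order rests on the Runx1 junction taken. Another junction of distal transcripts only, over the intron of 229 bases in Runx1-201 and Runx1-207, had 49 reads. Beside the same 871 reads, this is a lower proportion than the 26 beside 179 of Runx3. The measures also differed for Runx2, at a distal share of 24.1% by TPM and a junction ratio of 0.0227 (upper bound 0.133). Its distal Runx2-207 was given 104 and 75 fragments. The distal junctions of that transcript, over introns of 197 and 78550 bases, had 1 read each. The reads over shared junctions were uneven along each gene, from 283 to 2100 in Runx1, from 8 to 74 in Runx2 and from 179 to 322 in Runx3, so a ratio depends on the junction chosen. Against the median shared junction the ratios were 0.836 in Runx1, 0.0222 in Runx2 and 0.0861 in Runx3, in the same order. The leading distal and proximal transcripts also differ in their annotated last exon. It has 4659 bases in Runx1-201 (distal), 727 in Runx1-203 (proximal) and 2469 in Runx1-202 (proximal), and 2691 bases in Runx3-201 (distal) and 882 in Runx3-202 (proximal). In Runx2 it has 479 bases in Runx2-207 (distal) and is longer in the proximal Runx2-203 (4383) and Runx2-210 (565). The part of these differences in the transcript shares was not tested.

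**Figure D3:**
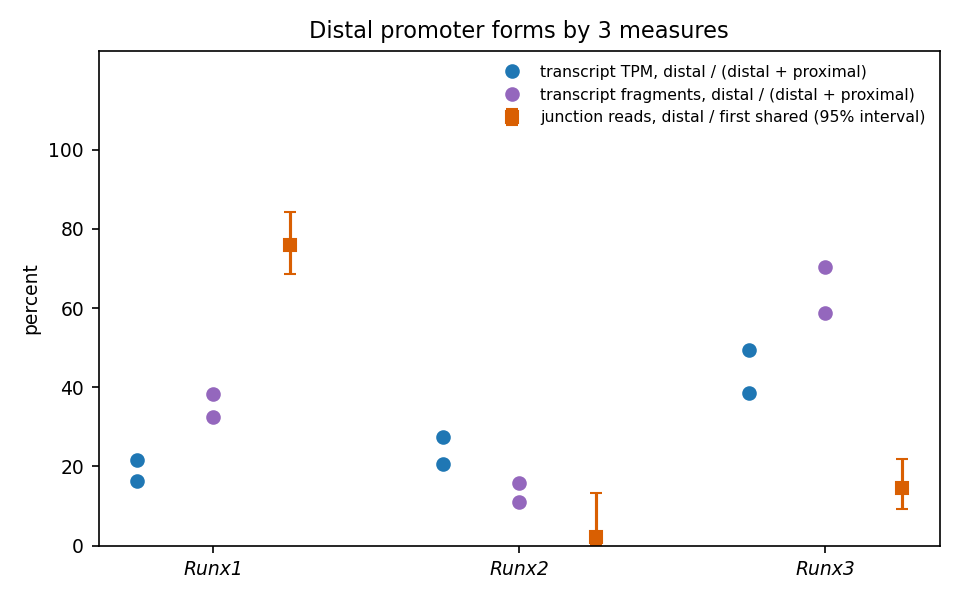
Distal use of each Runx gene in percent by transcript TPM (blue, 1 point per library), transcript fragments (purple, 1 point per library) and junction reads (orange square). Junction reads are those over the distal junction before the first shared junction, relative to the latter, taken as both libraries together, with the 95% exact interval. Runx1 is at 76% by junction reads and below 22% by TPM, and Runx3 at 14.5% by junction reads and 38.6% or more by TPM. Runx2 is at 2.27% by junction reads and 20.6% or more by TPM.

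Other junctions were set against the transcript values in the same way. The Runx1 exon of 192 bases is skipped by Runx1-202, a proximal transcript, through an intron of 54947 bases that had 189 reads. That junction took 40.0% of the reads leaving the upstream donor (35.6% to 44.6%, exact binomial) and 19.3% of those reaching the downstream acceptor (16.8% to 21.9%), while transcripts that skip the exon held 4.67% ± 0.132 of the TPM (SD, n = 2). Skipping of the Runx2 exon of 174 bases took 16 of 24 reads at the upstream donor (66.7%; 44.7% to 84.4%) and 16 of 72 at the downstream acceptor (22.2%; 13.3% to 33.6%), beside 13.8% ± 0.878 of the TPM. The transcript share lies outside the donor interval and inside the acceptor interval. Skipping of the Runx2 exon of 66 bases took 18.7% (11.3% to 28.2%) of reads at its donor and 27.0% (16.6% to 39.7%) at its acceptor, beside 40.9% ± 0.627 of the TPM. At both ends of the exon, the junction share was above the transcript share for the exon of 192 bases and below it for the exon of 66 bases, beyond the counting intervals.

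In Cbfb the measures lay closer. Of the 196 reads over the pair of alternative donors of the last intron, 142 (72.4%; 65.6% to 78.6%, exact binomial) used the donor of Cbfb-202, beside 77.2% ± 1.77 of the TPM (SD, n = 2). Skipping of the fifth exon, as in Cbfb-204, had 4 of 200 reads (2.00%; 0.548% to 5.04%), beside 0% and 7.48% of the TPM in replicates 1 and 2. The first Cbfb intron, of 252 bases, had 985 reads and the next one, of 7200 bases, 268.

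**Figure D4:**
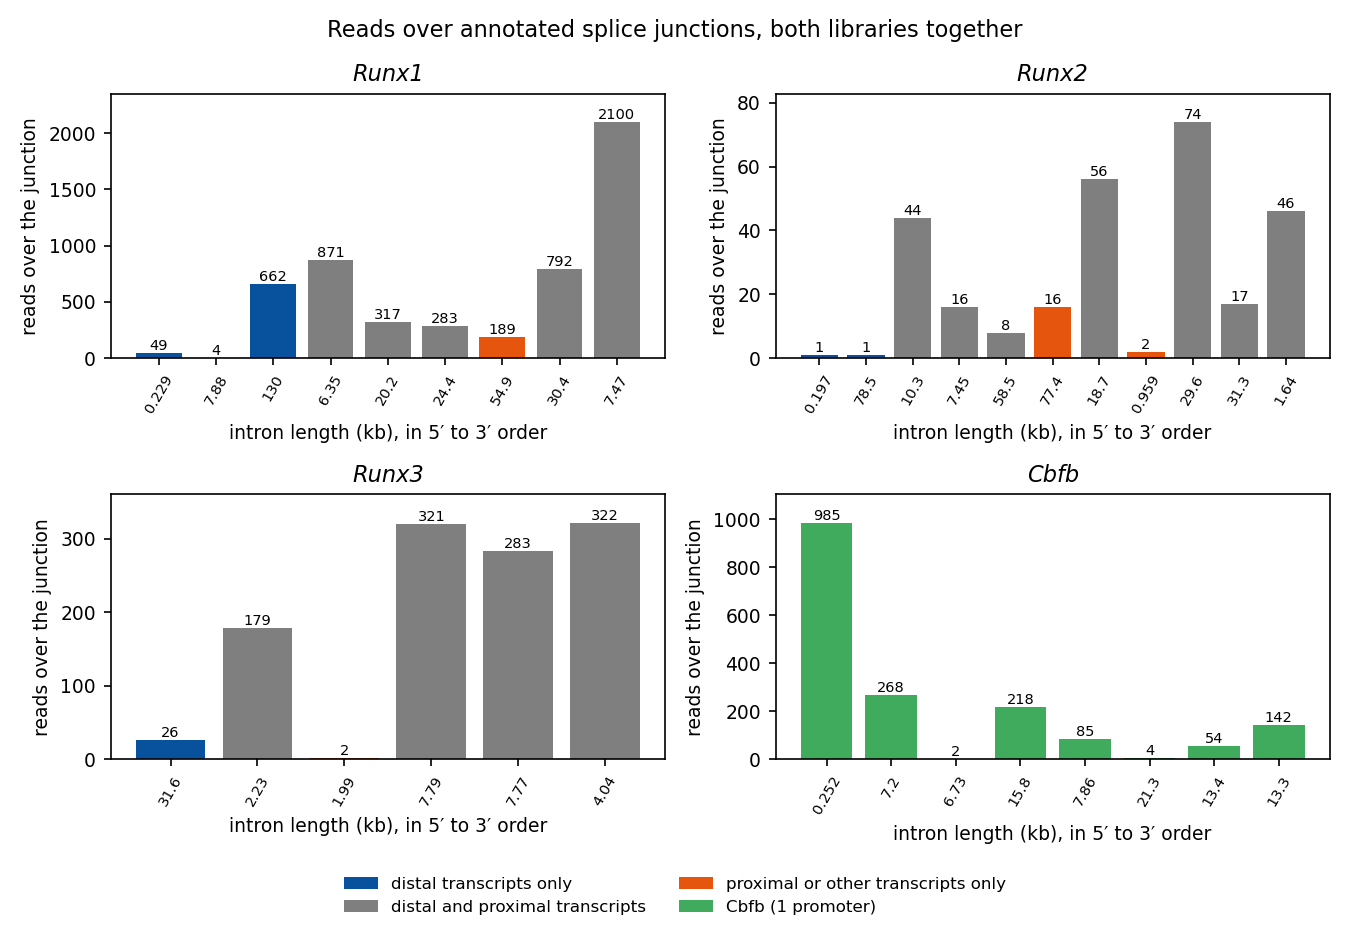
Reads over the annotated junctions found for each gene (taken as both libraries together), in 5′ to 3′ order and labelled by intron length in kb, with junctions of distal transcripts in blue, shared ones in grey, other Runx ones in orange and Cbfb in green. The distal junction of Runx1 before the first shared one has 662 reads beside 871 there, and that of Runx3 26 beside 179. Another distal junction of Runx1, over the intron of 229 bases, has 49.

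Genes that overlap the members on the genome can share their reads, since the labels call the libraries stranded but no source used here says whether the counting used the strand. Of the overlapping genes, 7 had 0 fragments in both libraries: Gm26626 in Runx1, Runx2os3, n-R5s27 and Runx2os2 in Runx2, Gm16224 in Runx3, and Gm22063 and Gm24629 in Cbfb. Runx2os1, an antisense RNA at chr17:44735845-44737612 that spans the start of Runx2-203, was at 5.15 and 4.0 TPM (104 and 112 fragments), close to Runx2 itself. Supt3, a protein-coding gene on the strand opposite to Runx2 at chr17:44777152-45119290, was at 3.77 and 3.8 TPM. The levels of Runx2 and Runx2os1 near the proximal start are therefore uncertain with respect to each other.

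The 2 libraries form 1 group and hold no pattern over conditions, so no gene was named for a similar pattern, and the protein-coding genes next to each member in mean TPM are given instead. Runx1 stood between Cidec (88.8 ± 11.2 TPM) and Dmac1 (88.8 ± 10.3 TPM), and Runx2 between Cetn2 (6.31 ± 1.88 TPM) and Ctso (6.31 ± 0.0919 TPM). Runx3 stood between Nup54 (23.9 ± 6.14 TPM) and Cep164 (23.9 ± 3.26 TPM), and Cbfb between Tspyl2 (24.96 ± 3.24 TPM) and Gm525 (24.95 ± 4.72 TPM; SD, n = 2 throughout).

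The measured genes of proteins that Runx factors recruit were all above 1 TPM. Of 15 listed co-repressors and co-activators, 14 were measured and all 14 were above 1 TPM, with a median of 53.5 TPM. Among all genes, 14360 of 43346 had a mean of at least 1 TPM. That share also stands beside the counts above 1 TPM in the other lists. Aes, a short member of the Groucho family, led with 1560 and 1441 TPM. The histone deacetylase scaffold Sin3a was at 236 and 187 TPM and the Groucho co-repressor Tle3 at 213 and 162 TPM. The lowest was Wwtr1, a co-activator of the Hippo pathway, at 4.56 and 4.83 TPM. None of the 14 passed 1.5-fold between the libraries.

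The ETO family, known as fusion partners of RUNX1 in leukaemia or relatives of it, was partly present. Cbfa2t3 was at 63.33 and 48.00 TPM and Cbfa2t2 at 25.03 and 21.66 TPM. Runx1t1, the fusion partner itself, was below 1 TPM with 0.91 and 0.54 TPM. None of the 2 above 1 TPM passed 1.5-fold.

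Of 18 transcription factors that bind beside Runx proteins, 17 were above 1 TPM, with a median of 57.7 TPM. The Ikaros gene Ikzf1 led with 771 and 508 TPM, followed by Ets2 with 494 and 262 TPM and Bcl11b, a T lineage commitment factor, with 474 and 273 TPM. Bcl11b (log2 ratio -0.70), Gata3 (103.52 and 67.77 TPM, -0.63) and Cebpa (69.99 and 44.05 TPM, -0.63) were lower in replicate 2 past 1.5-fold, Gata3 and Cebpa not with total counts. With TMM scaling the other 14 did not pass, and 0 were higher, beside the 4.15% lower and 6.53% higher among all genes. By TPM without rescaling, Ets2, Ikzf1 and Ets1 (333.15 and 213.63 TPM) were also lower in replicate 2 past 1.5-fold. The share of all genes past it by TPM was not computed. The lowest was Tal1, an early haematopoietic factor, at 0.79 and 0.70 TPM.

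All 10 listed kinases and ligases that act on Runx proteins were above 1 TPM, with a median of 50.1 TPM. Hipk1, a kinase of Runx1, was at 195 and 136 TPM, Cdc20, an activator of the anaphase-promoting complex, at 176 and 120 TPM, and Cdk1 at 133 and 104 TPM. Pim1 was lower in replicate 2 past 1.5-fold (88.97 and 53.51 TPM, log2 ratio -0.69), beside 4.15% of all genes with at least 1 TPM. Cdk6 (30.94 and 20.01 TPM) was past it by TPM without rescaling but not with TMM scaling. The ligase gene Smurf2 was lowest at 7.99 and 7.78 TPM.

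Genes with Runx-bound elements in T cells ranged widely in level. Of 28 listed, 23 were above 1 TPM, and the median was 47.7 TPM. The receptor constant genes Trbc1 (3420 and 3683 TPM) and Trbc2 (2908 and 3111 TPM), which share near-identical sequence and are uncertain as separate values, led with Tcf7 (2747 and 2299 TPM). The lowest was Il3 at 0.14 and 0.05 TPM, from 2 fragments and 1. Past 1.5-fold were Bcl11b, given above, and Gzmb, a cytotoxic granule protease, which was higher in replicate 2 with 1.02 and 1.78 TPM, though not past 1.5-fold with TPM and a pseudocount of 1. The other 21 above 1 TPM did not pass, and 10.7% of all genes with at least 1 TPM did. The median log2 ratio of all 23 was -0.03, beside -0.37 to -0.57 for the 4 members.

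Runx2 targets of bone were low. Of 11 listed, 6 were above 1 TPM and the median was 1.67 TPM, beside a Runx2 level of 6.31 TPM. All 6 passed 1.5-fold, beside 10.7% of all genes with at least 1 TPM, but 5 of 6 did with total counts, 4 with TPM and a pseudocount of 0.1, and 1 with a pseudocount of 1. Col1a1, the main bone and skin collagen, was at 15.68 and 9.40 TPM and Tnfsf11, the RANKL gene, at 3.30 and 2.08 TPM, both lower in replicate 2. Alpl (2.82 and 4.02 TPM), Spp1 (2.67 and 4.0 TPM), Bglap2 (1.83 and 2.99 TPM) and Bglap (1.22 and 2.11 TPM) were higher in replicate 2. Except for Col1a1 (3142 and 2611 fragments), these ratios rest on few fragments. Tnfsf11 had 234 and 204, Alpl 180 and 404, Spp1 112 and 232, Bglap2 16.37 and 37.03, and Bglap 9.63 and 20.97. The 2 osteocalcin genes Bglap and Bglap2 are near-identical copies and are uncertain as separate values. Dmp1, an osteocyte gene, was lowest with 2 fragments in replicate 1 and 0 in replicate 2, and the osteoblast regulator Sp7 had 0.18 and 0.11 TPM.

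**Figure D5:**
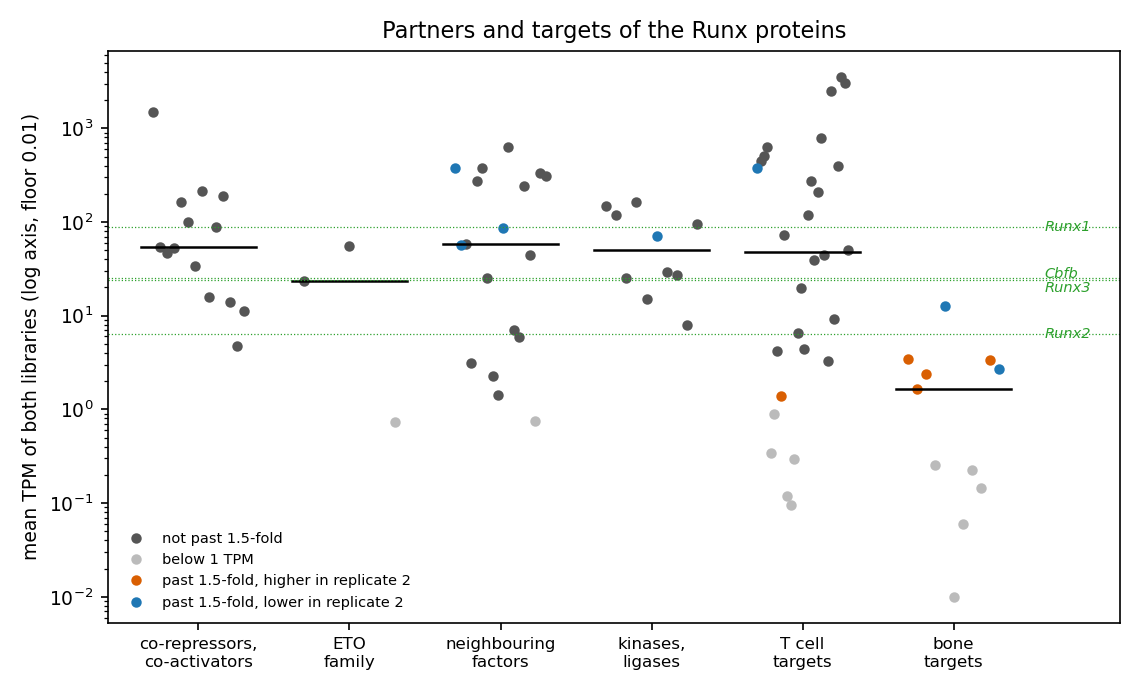
Mean TPM of both libraries (log axis) of each listed partner or target of Runx proteins by list, with the list median as a black line, genes below 1 TPM in light grey, genes past 1.5-fold in orange (higher in replicate 2) or blue (lower), and the level of each member as a dotted green line. Bone genes have the lowest median, 1.67 TPM, and the neighbouring transcription factors the highest, 57.7 TPM.

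Markers of the cell types known to express Runx genes were also read. CD8 lineage markers were above 1 TPM in 8 of 10, led by Cd8b1 and Ccl5, with sums of 1631 and 1862 TPM, and 0 passed 1.5-fold. Immature thymocytes also express Cd8a and Cd8b1, which gave most of that sum. Tbx21 (3.39 and 3.16 TPM) and Cd160 (2.35 and 2.15 TPM) were low, and Eomes (1.18 and 0.62 TPM) and Gzmk (0.07 and 0.16 TPM) were below a mean of 1 TPM. Natural killer and innate lymphoid markers were above it in 8 of 10. Klrb1c (0.81 and 2.03 TPM, 62 and 215 fragments) and Gzmb (43 and 104 fragments) were higher in replicate 2 past 1.5-fold and 0 were lower. Among all genes with at least 1 TPM, 6.53% were higher and 4.15% lower. Gzmb was not past it with TPM and a pseudocount of 1. Ncr1 (0.48 and 0.17 TPM) and Klrd1 (0.5 and 0.82 TPM) were below a mean of 1 TPM. Dendritic cell markers summed to 1641 and 1415 TPM with 10 of 10 above 1 TPM, 1 higher and 1 lower in replicate 2. Most of that sum came from Ly6d (1094 and 876 TPM) and Bst2 (374 and 367 TPM). Irf8 came next with 83.8 and 80.69 TPM, and the lowest was Cd209a with 1.44 and 0.70 TPM.

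B cell markers, led by Cd79a and Cd79b, summed to 87.2 and 71.5 TPM with 6 of 6 above 1 TPM and 1 lower in replicate 2. Macrophage and granulocyte markers, led by Cd68 and Csf1r, summed to 167 and 170 TPM with 8 of 8 above 1 TPM and 2 lower. Fibroblast and endothelial markers, led by Dcn and Pecam1, summed to 151 and 174 TPM with 8 of 8 above 1 TPM, 1 higher and 1 lower. Bone and cartilage markers, led by Alpl and Bglap2, summed to 6.48 and 9.90 TPM with 3 of 8 above 1 TPM. All 3 were higher in replicate 2 past 1.5-fold beside 6.53% of all genes, and 0 of them with TPM and a pseudocount of 1. They are Alpl, Bglap2 and Bglap, already counted among the bone targets above, so this is no second result. Higher and lower in these marker lists mean past 1.5-fold, which held for 6.53% and 4.15% of all genes with at least 1 TPM. No marker was at 0 in both libraries. The share of Runx1, Runx2, Runx3 or Cbfb transcripts that came from each of these cell types was not measured here.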

How the data were processed

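The authors deposited a gene and a transcript table per library with expected counts (estimated fragments), TPM, FPKM and bounds of a TPM interval, per the file headers. Per the deposited text files, features were quantified on mm10 with GENCODE M4, with the quantifier and aligner not given in the sources used here. The deposited junction list holds whole-number read counts on mm9 with no header, and its meaning was read from the values. The 2 per-library entries in the junction names carry no sample label and stayed out. Features that are no gene took 1.49% and 1.48% of fragments and were left out.

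Members and lists were chosen with earlier results of these data known. Named were the members with all transcripts of at least 5% of the gene, overlapping genes, level neighbours, the highest 3 and lowest 1 of each pathway list with those past 1.5-fold, and the highest 2 of each marker list. The summed level of the natural killer and innate lymphoid list is not reported here. Other genes named in the marker paragraphs, and Ets1 and Cdk6, were chosen after their values were seen. Symbols, spans and transcripts came from GENCODE M21 (the same build, another release), matched on unversioned IDs: 42462 genes matched, Prmt1 did not, and 2 of the 33 member transcripts have another length there. Annotated starts more than 5 kb apart were taken as separate promoters. Introns were found in the junction list by chromosome, strand, exact length and common arrangement, with no coordinate carried between builds. A gene was detected at a mean of at least 1 TPM and called past 1.5-fold after TMM scaling (edgeR 4.0.16) of rounded expected counts. DESeq2 1.42.0 size factors, total counts and TPM with pseudocounts of 0.1 and 1 were alternatives. Tools were Python 3.11.15, pandas 2.3.3, scipy 1.17.1, matplotlib 3.10.9 and R 4.3.3. Promoter windows came from RefSeq (GRCm38.p6), where Runx2 has no proximal entry in the table used.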

Additional observations from a re-analysis of the deposited data

How the results depend on the processing

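Of 74 alternatives on both libraries to 26 results, 52 were labelled as the same and 22 as moved. A value was the same if it moved by less than its spread or stayed within its counting interval. Counts of genes above a TPM threshold and of leading transcripts were the same within 1.5-fold. The count of members past 1.5-fold was the same only if equal. All 4 members stayed lower in replicate 2 under all 5 scalings tried, beside 50.6% of all genes with at least 1 TPM under TMM scaling. With TPM and a pseudocount of 0.1 or 1, the Runx1 log2 ratio was -0.63 or -0.62 and that of Runx3 -0.56 or -0.54, and 1 member (Runx1) passed 1.5-fold under either. With total counts the Runx1 ratio was -0.49. TPM rescaled to nuclear protein-coding genes gave mean levels of 8.23 for Runx2, 31.1 for Runx3 and 32.5 for Cbfb. Posterior mean TPM gave shares of 72.9% for Runx1 and 21.5% for Runx3, and a Runx3 level 1.02 times that of Cbfb in place of 0.951, and expected counts 73.3%, 5.88% and 20.8% for Runx1, Runx2 and Runx3. The distal share by expected counts was 35.5% (Runx1), 13.4% (Runx2) and 64.6% (Runx3, where the distal form then leads), and that of Runx1 among protein-coding transcripts 14.1%. By expected counts, which are not divided by length, 2 of 4 leading transcripts stayed the same. A threshold of 5 TPM left 1 bone gene. Of the 11 listed genes past 1.5-fold, all kept their direction under the 5 scalings, and 8 stayed past it with total counts, 9 with TPM and a pseudocount of 0.1 and 5 with a pseudocount of 1. These counts leave out listed genes that passed by TPM but not with TMM scaling. The Runx3 junction ratio against the median shared junction, an alternative chosen after seeing the data, was 0.0861. With 2 libraries, leaving one out gives the other's value, which always lies within 1 SD of the mean and says nothing about stability. No paired analysis was possible because there is 1 group, with no second group to pair. Depth limits Runx2 most: its junctions had 74 reads at most, and those used by distal transcripts alone had 1 read at most. The cause of the other moves was not tested.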
